A study of Mus musculus with 15 samples.

Results

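The immediate-early and mechanoresponsive genes described here are Fos, Fosb, Jun, Junb, Egr1, Egr2, Atf3, Ier2, Ier3 and Dusp1. They were found by matching the transcript accession of each array probe to its RefSeq mouse symbol, and all 10 genes were on the array with 1 probe each, which makes them 10 of the 55681 probes left after control spots. The Fos probe was printed in 10 spots and each of the other 9 probes in 1 spot. Femoral RNA of 15 male C57BL/6J mice, labelled as 9-week old, was hybridised on 1 array per mouse. By the study's methods the mice were older than this label when the tissue was collected. FLT-Sham (n = 4) and FLT-Surgery (n = 3) were flown to the International Space Station, and G-Sham (n = 4) and G-Surgery (n = 4) stayed on the ground in flight-like housing. Surgery mice had received, before launch, a segmental bone defect of the femur that was bridged with a scaffold and a pin and treated with a collagen sponge holding saline, and sham mice were not operated on. The callus, or the matching midshaft of a sham femur, was ground whole, so each array reports a mixture of bone, marrow and any adhering tissue. Carcasses were frozen after death and thawed for dissection, and the study's own RNA quality values were low. In such bulk tissue, fewer cells of a type and less RNA per cell cannot be told apart. Every mouse's RNA was labelled with Cy5 and run beside a common reference labelled with Cy3, a pool of RNA from mouse cell lines.

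Immediate-early genes are switched on within minutes of a stimulus without new protein synthesis, because the factors that drive them, among them CREB, serum response factor and its ternary complex partners, are already present and need only be activated. Most of the products are transcription factors. Fos and Jun proteins pair to form AP-1, EGR proteins are zinc finger factors, and Atf3 is a stress-induced factor that pairs with AP-1 subunits, whereas Dusp1 is a phosphatase that switches off MAP kinases and so limits the response. In bone they are known for their induction in osteoblasts and osteocytes by mechanical loading and fluid flow, and for their role in the early response to fracture. They are also induced quickly by handling, death and dissection of a tissue.

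The sequence upstream of a gene's start was read from the RefSeq promoter table (mouse build GRCm38.p6), which held an entry for 8 of the 10 members, without Egr1 and Ier2. The window of 250 bases before the start is shown for Fos and Dusp1, which were brightest on the same arrays, and for Atf3, which had the smallest p of the members in both comparisons against G-Sham. Capitals mark the core of the cAMP response element (TGACGT, or ACGTCA when read on the opposite strand) and the TATA box TATAAA. Fos lies on the plus strand at chr12:85473640-85473889, Atf3 on the minus strand at chr1:191183334-191183583, and Dusp1 on the minus strand at chr17:26508473-26508722.
Fos: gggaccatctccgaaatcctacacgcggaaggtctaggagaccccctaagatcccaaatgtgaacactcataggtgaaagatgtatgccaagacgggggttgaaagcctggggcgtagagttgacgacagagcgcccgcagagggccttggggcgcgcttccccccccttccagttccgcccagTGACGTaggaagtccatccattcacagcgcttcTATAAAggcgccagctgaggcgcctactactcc
Atf3: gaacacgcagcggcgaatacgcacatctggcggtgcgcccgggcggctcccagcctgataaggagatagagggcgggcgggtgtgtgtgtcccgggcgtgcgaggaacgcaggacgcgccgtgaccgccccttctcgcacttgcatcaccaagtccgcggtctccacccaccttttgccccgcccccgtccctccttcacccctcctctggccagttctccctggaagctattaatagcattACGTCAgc
Dusp1: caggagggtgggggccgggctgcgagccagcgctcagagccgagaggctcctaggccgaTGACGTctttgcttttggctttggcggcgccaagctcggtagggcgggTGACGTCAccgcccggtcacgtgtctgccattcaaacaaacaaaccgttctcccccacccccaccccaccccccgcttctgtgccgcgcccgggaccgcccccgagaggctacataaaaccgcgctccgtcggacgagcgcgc
The full element TGACGTCA, which overlaps the core on both strands, stood in 1 member (Dusp1), and in 1.55% of all 32851 promoter windows of this length. Its core stood in 4 members (Fos, Egr2, Atf3 and Dusp1) and in 6.47% of all windows, both strands searched. TATAAA was found upstream of Fos alone among the members, against 12.4% of all windows. The CArG box, the site of serum response factor, was found for 1 member (Egr2, whose windows number 5) against 1.47%, the GC box GGGCGG for 7 members against 32.7%, and the AP-1 site TGANTCA for 0 members against 6.75%. A match describes the letters in the window and is no evidence that a factor was bound.

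Some arrays stood apart from their group in measures other than the members. The share of probes above background in Cy5 was 22.4 to 38.5% over the 15 arrays. FLT-Sham replicate 8 had 26.6%, against 34.9 to 38.5% in the other 3 FLT-Sham arrays, and G-Surgery replicate 1 had 37.2%, against 25.7 to 29.3% in the other 3. G-Sham replicate 4 was the only array on its slide, so its mouse and its slide cannot be told apart. Marker genes, summed over each list relative to the 75th percentile of the array, differed between groups and within them. All 10 skeletal muscle markers were on the array, with sums of 1850 to 14900 in FLT-Sham, 1450 to 10300 in G-Sham, 675 to 3890 in G-Surgery and 267 to 3980 in FLT-Surgery. Of these markers, Mylpf was below background on every array of both Surgery groups. The 5 erythroid markers summed to 75.5 to 292 in FLT-Sham, 46 to 107 in G-Sham, 4.27 to 32.1 in G-Surgery and 9.17 to 59.9 in FLT-Surgery. For the 4 adipocyte markers the sums were 28.2 to 112 in FLT-Sham, 0.912 to 45.7 in G-Sham, 4.42 to 27 in G-Surgery and 0.361 to 25 in FLT-Surgery. Adipoq and Plin1 were below background on every array of both Surgery groups, and Plin1 also on every G-Sham array. In FLT-Sham, replicate 8 held the lowest sum of all 3 lists, and in FLT-Surgery replicate 1 held the highest. The osteoblast markers summed to 587 to 1570 over all arrays, with Sp7 below background on every array, and Alpl and Runx2 on every FLT-Surgery array. Of the 4 osteocyte markers, Dmp1, Phex and Sost were below background on every array, so no level of osteocyte RNA can be read from these 3. Mepe, the remaining osteocyte marker, was above background on every G-Surgery array and on some arrays of each other group.

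**Figure D1:**
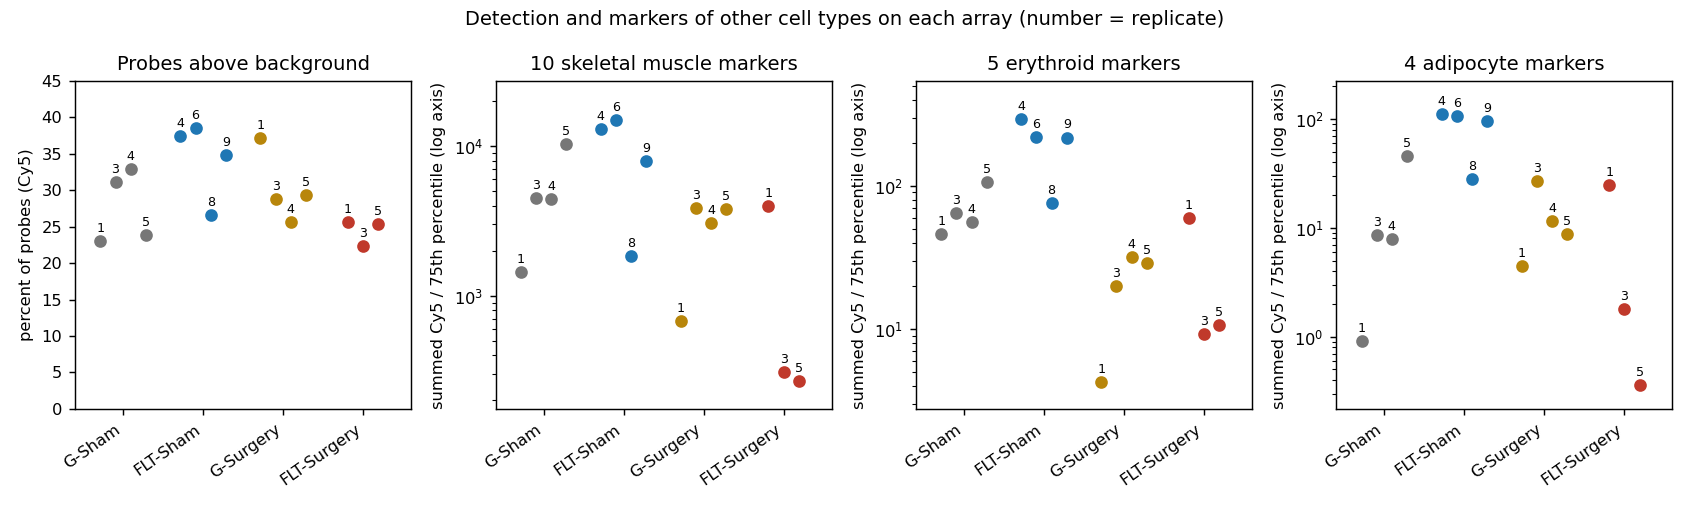
Each point is 1 array, with the groups along the x axis. The panels show the share of probes above background in Cy5 (percent) and the summed marker levels relative to the array's 75th percentile on a log axis. FLT-Sham replicate 8 had 26.6% of probes above background and the lowest muscle sum of its group (1850), and FLT-Surgery replicate 1 had the highest muscle sum of its group (3980).

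Members were compared by the log2 ratio of Cy5 to Cy3, and a gene was called changed at a fold change of at least 2 with an unadjusted limma p of at most 0.01, the cut-off of the study's methods. To be tested, a probe had to exceed background in the Cy5 channel on a minimum of 3 arrays of the comparison. None of the members passed in any comparison. In FLT-Sham versus G-Sham 0 of 8 members tested were called, where 2% of all 19739 probes tested were, and 3 members (Fos, Egr1 and Atf3) had an unadjusted p of at most 0.05, against 9.57% of all probes. Of these, Fos was tested only through the arrays of its brighter group. In FLT-Surgery versus G-Surgery 0 of 7 were called against 3.14% of all probes, and 0 members had p at most 0.05 against 16.4%. For G-Surgery versus G-Sham the counts were 0 of 7 against 2.59%, and 2 members with p at most 0.05 against 10.9%. In FLT-Surgery versus FLT-Sham 0 of 8 were called against 6.65%, and 0 had p at most 0.05 against 24.3%. The interaction, which asks whether spaceflight acted differently in Surgery and in Sham mice, called 0 of 8 against 5.33%, with 2 members at p at most 0.05 against 19.5%. With Benjamini-Hochberg adjustment over all probes tested the smallest limma value of any member was 0.211. On this scale the arrays of both groups overlapped for every member in each comparison of groups, whereas groups did not overlap for 4.6% of all probes tested in FLT-Sham versus G-Sham, 13.6% in FLT-Surgery versus G-Surgery, 6.86% in G-Surgery versus G-Sham and 14.7% in FLT-Surgery versus FLT-Sham. The comparisons share arrays, since each group enters more than 1 of them.

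**Figure D2:**
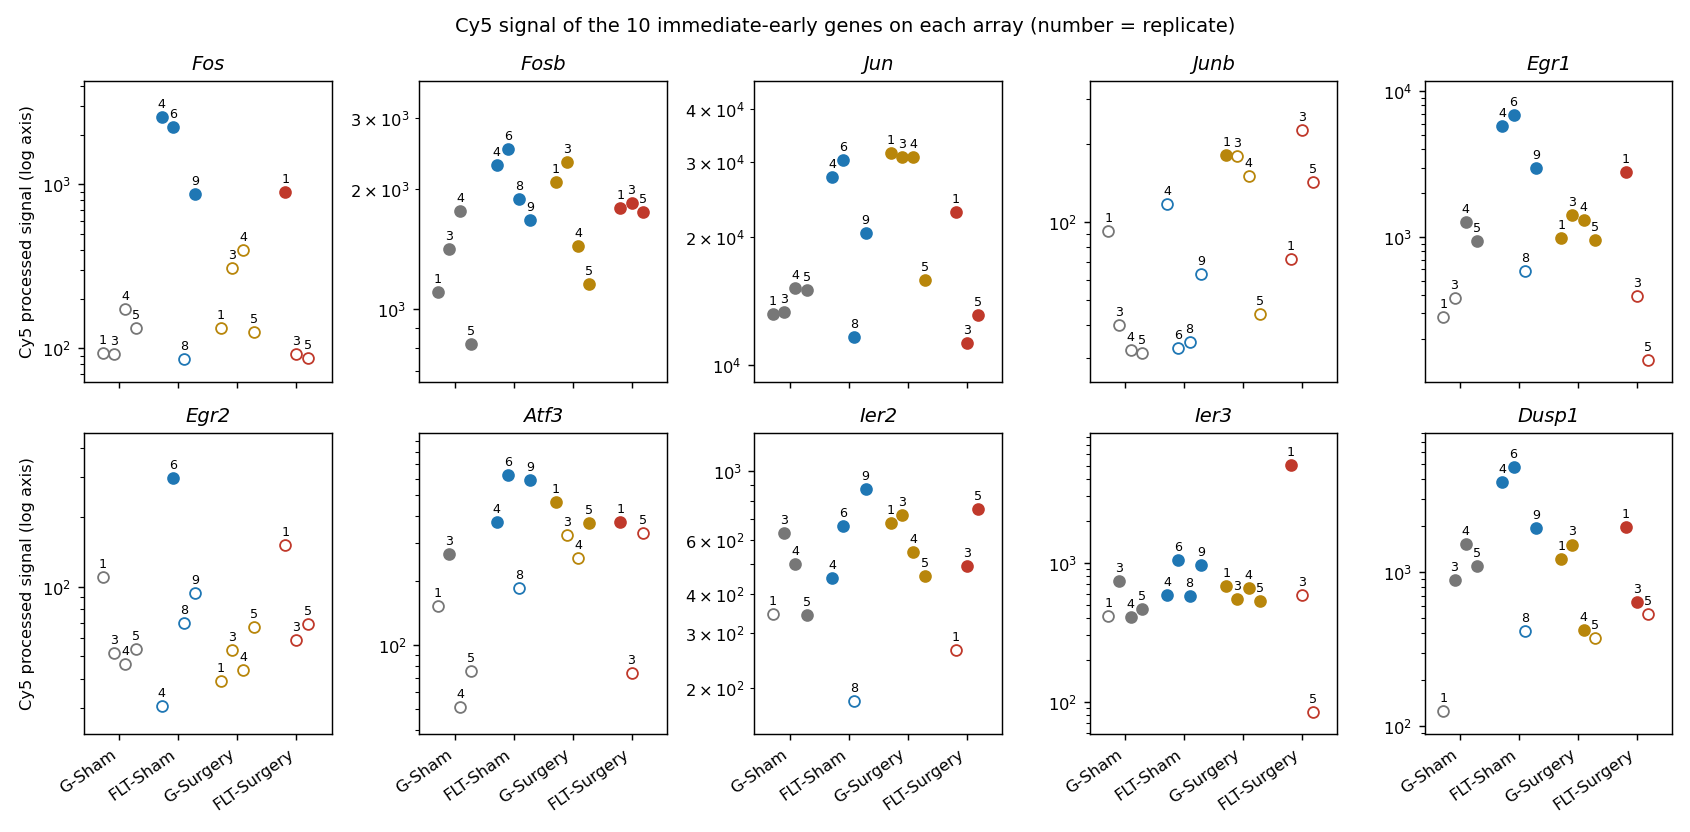
Cy5 signal of each member (log axis, scanner intensity after background subtraction and dye normalisation) on the 15 arrays, with groups along the x axis and 1 point per mouse. Filled points were above background and open points were not. Fos was above background on 4 arrays only, FLT-Sham replicates 4, 6 and 9 and FLT-Surgery replicate 1, while Fosb and Jun were above background on all 15.

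Fos, the founding subunit of AP-1, was bright in some flight mice and not above background in any other mouse. In FLT-Sham its Cy5 signal was 2570 in replicate 4, 2249 in replicate 6, 86.4 in replicate 8 and 877 in replicate 9. In G-Sham it was 93.0, 92.7, 173 and 133 in replicates 1, 3, 4 and 5. Hence 3 FLT-Sham arrays lay above every G-Sham array, while replicate 8 and all 4 G-Sham arrays were not above background and have no order among themselves. In G-Surgery the Fos signal was 132, 310, 396 and 126 in replicates 1, 3, 4 and 5. In FLT-Surgery it was 896 in replicate 1 but 92.2 and 86.9 in replicates 3 and 5. The probe was well above background on 3 of 4 FLT-Sham arrays and 1 of 3 FLT-Surgery arrays and on no ground array of either kind. Since G-Sham was dim on all arrays, the ratio of the group means can be given only as a lower limit, 4.42-fold. This limit averages in the dim FLT-Sham replicate 8 and takes no account of the spread between mice. On the log2 ratio scale the means were -2.26 ± 2.42 (SD, n = 4) in FLT-Sham and -4.80 ± 0.71 (SD, n = 4) in G-Sham, a difference of 2.55 (SE 1.08, limma adjusted p = 0.514). The difference rested on which FLT-Sham mice were counted. Without replicate 8 it was 3.70 and past the cut-off. The probe passed the filter only through FLT-Sham arrays, so some difference in this direction was built into its being tested. In the Surgery mice Fos was above background on 1 array and was not tested. FLT-Surgery differed from FLT-Sham by -1.93 (SE 1.48, limma adjusted p = 0.394), and this turned to 0.20 when the background was corrected by normexp and a loess was added.

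Jun, the partner of Fos proteins in AP-1, was above background on all 15 arrays. In G-Surgery its Cy5 signal was 31540, 30750, 30840 and 15850 in replicates 1, 3, 4 and 5, and in G-Sham it was 13190, 13340, 15200 and 15000. Every G-Surgery array was thus brighter in Cy5 than every G-Sham array, although on the log2 ratio scale the groups overlapped. The signals of FLT-Sham were 27700, 30390, 11640 and 20490 in replicates 4, 6, 8 and 9, and those of FLT-Surgery 22880, 11300 and 13120 in replicates 1, 3 and 5. FLT-Sham ran from below the lowest G-Sham array to near the brightest G-Surgery arrays, and FLT-Surgery from below the lowest G-Sham array to 22880. The log2 ratio of G-Surgery exceeded that of G-Sham by 0.89 (SE 0.34, 95% interval 0.12 to 1.66, limma adjusted p = 0.397). Without G-Sham replicate 5 the difference was 1.10 and passed the cut-off. FLT-Surgery was lower than G-Surgery by a log2 difference of -0.64 (SE 0.37, limma adjusted p = 0.398), which missed the cut-off, and FLT-Sham differed from G-Sham by 0.26 (SE 0.36). The interaction of Jun was -0.89 (SE 0.52, limma adjusted p = 0.337), between -1.21 and -0.71 with any array left out.

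Fosb, a second Fos family subunit, was also above background on all 15 arrays and differed little. Its Cy5 signal was 1673 to 2512 in FLT-Sham, 817 to 1765 in G-Sham, 1154 to 2337 in G-Surgery and 1754 to 1840 in FLT-Surgery. The log2 difference was 0.45 (SE 0.32) for FLT-Sham versus G-Sham and 0.19 (SE 0.33) for FLT-Surgery versus G-Surgery, neither past the cut-off. The 95% intervals, -0.27 to 1.17 and -0.57 to 0.96, both include 0, and the first reaches past a 2-fold increase. G-Surgery differed from G-Sham by 0.32 (SE 0.31) and FLT-Surgery from FLT-Sham by 0.07 (SE 0.34). Junb, the Jun family member that often opposes Jun, was above background on 1 array, G-Surgery replicate 1, at a Cy5 signal of 182. Its signals were 44.1 to 182 in G-Surgery, 31.3 to 92.1 in G-Sham, 32.6 to 117 in FLT-Sham and 72.4 to 227 in FLT-Surgery. Junb was therefore not tested.

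Egr1, the zinc finger factor best known for its response to mechanical load, was highest on the arrays that were highest for Fos. In FLT-Sham its Cy5 signal was 5787, 6930, 583 and 2967 in replicates 4, 6, 8 and 9, and in G-Sham it was 282, 379, 1262 and 934 in replicates 1, 3, 4 and 5. In FLT-Surgery the signal was 2779, 390 and 143 in replicates 1, 3 and 5. G-Surgery was the evenest group, at 977, 1416, 1308 and 958 in replicates 1, 3, 4 and 5. The 4 brightest arrays, FLT-Sham replicates 6, 4 and 9 and FLT-Surgery replicate 1, were the only ones brighter than all G-Surgery arrays. FLT-Sham exceeded G-Sham by 1.86 in log2 ratio (SE 0.81, 95% interval 0.03 to 3.70, limma adjusted p = 0.514), and by 2.51, past the cut-off, without FLT-Sham replicate 8. FLT-Surgery differed from G-Surgery by -1.05 (SE 0.98, 95% interval -3.33 to 1.22, limma adjusted p = 0.588), with replicate 1 on one side of the ground group and replicates 3 and 5 on the other. Leaving out FLT-Surgery replicate 1 gave -2.34, past the cut-off, whereas normexp with loess turned the difference to 0.53. Without replicate 1 no FLT-Surgery array was above background and the probe passed the filter only through G-Surgery arrays. Part of that direction was thus built in and its size is not exact. The interaction was -2.92 (interval -5.81 to -0.03, limma adjusted p = 0.253), and it was -4.20 and past the cut-off without FLT-Surgery replicate 1. G-Surgery differed from G-Sham by 0.83 (SE 0.56, limma adjusted p = 0.598) and FLT-Surgery from FLT-Sham by -2.09 (SE 1.18, limma adjusted p = 0.281), the latter between -3.37 and -1.0 with any array left out and 0.11 under normexp with loess. Egr2, a related zinc finger factor, was above background on 1 array, FLT-Sham replicate 6, at a Cy5 signal of 296, and ranged from 30.5 to 152 on the other arrays. It was not tested.

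Atf3, a factor induced by cell stress, was lower in the G-Sham arrays than in most others. Its Cy5 signal was 151, 265, 51.1 and 75.1 in G-Sham replicates 1, 3, 4 and 5, and 468, 327, 256 and 372 in G-Surgery replicates 1, 3, 4 and 5. In FLT-Sham it was 375, 621, 185 and 590 in replicates 4, 6, 8 and 9. In both cases the lowest array of the brighter group lay below G-Sham replicate 3, the brightest of its group. The FLT-Surgery signals were 376, 73.9 and 333 in replicates 1, 3 and 5. On the log2 ratio scale FLT-Sham exceeded G-Sham by 1.79 (SE 0.66, 95% interval 0.29 to 3.28, limma adjusted p = 0.503), and G-Surgery exceeded G-Sham by 1.72 (SE 0.56, 95% interval 0.44 to 3.0, limma adjusted p = 0.362). These comparisons share the G-Sham arrays, of which only replicate 3 was above background for Atf3. The gene was above background on 7 of 15 arrays, so its differences rest partly on signals not above background. Without FLT-Sham replicate 8 the difference of FLT-Sham from G-Sham was 2.17 and without G-Sham replicate 3 it was 2.28, both past the cut-off, but under normexp with loess it was -0.10. Without G-Sham replicate 3 the probe passed the filter only through FLT-Sham arrays, so part of that direction was built in. FLT-Surgery differed from G-Surgery by -0.76 (SE 0.67, limma adjusted p = 0.569), which turned to 0.15 with a loess on the processed signals. The interaction was -2.55 (SE 1.0, limma adjusted p = 0.211). It passed the cut-off without FLT-Surgery replicate 1 (-3.15) and without G-Sham replicate 3 (-3.04), and normexp with loess gave 0.14.

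Ier2 and Ier3, immediate early response genes of which the second is known to protect cells from apoptosis, were above background on 12 of 15 arrays each. The Ier2 Cy5 signal was 181 to 875 in FLT-Sham, 344 to 630 in G-Sham, 458 to 722 in G-Surgery and 264 to 750 in FLT-Surgery. Its log2 difference was -0.26 (SE 0.57) for FLT-Sham versus G-Sham and -0.38 (SE 0.36) for FLT-Surgery versus G-Surgery, which a loess on the processed signals turned to 0.45. The Ier3 signal was 578 to 1050 in FLT-Sham, 407 to 736 in G-Sham, and 534 to 679 in G-Surgery. In FLT-Surgery it was 5020 in replicate 1, the brightest Ier3 array of all 15, 588 in replicate 3 and 84.8 in replicate 5. Replicates 3 and 5 were not above background, so their level is not exact. The mean log2 difference of FLT-Surgery from G-Surgery was accordingly 0.01 with an SE of 1.34.

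Dusp1, the phosphatase that switches off MAP kinases, shared its brightest arrays with Fos and Egr1. Its Cy5 signal was 3870, 4790, 416 and 1937 in FLT-Sham replicates 4, 6, 8 and 9, and 126, 894, 1516 and 1091 in G-Sham replicates 1, 3, 4 and 5. It was 1974, 641 and 536 in FLT-Surgery replicates 1, 3 and 5, and 1210, 1510, 418 and 374 in G-Surgery replicates 1, 3, 4 and 5. In Cy5 signal the 4 brightest Dusp1 arrays were again FLT-Sham replicates 4, 6 and 9 and FLT-Surgery replicate 1. In log2 ratio, however, G-Sham replicate 5 (0.01) lay above FLT-Sham replicate 9 (-0.04). The log2 difference of FLT-Sham from G-Sham was 1.30 (SE 1.10, 95% interval -1.20 to 3.81, limma adjusted p = 0.575), which did not pass. Without an array of either group it ranged from 0.27 to 2.02. FLT-Surgery differed from G-Surgery by 0.15 (SE 0.71, 95% interval -1.51 to 1.82) and from FLT-Sham by -0.99 (SE 0.90). For G-Surgery versus G-Sham the difference was 0.16 (95% interval -2.12 to 2.44), which a further loess turned to -0.18.

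The arrays that were brightest for Fos, Egr1 and Dusp1 also differed in other measures. In FLT-Sham replicates 4, 6 and 9 the muscle sums were 13100, 14900 and 7980, the erythroid sums 292, 219 and 218, and the adipocyte sums 112, 106 and 96.2. FLT-Sham replicate 8, the array of its group not above background for Fos, had 1850, 75.5 and 28.2. FLT-Surgery replicate 1 had 3980, 59.9 and 25, and replicates 3 and 5, both dim for Fos, had muscle sums of 310 and 267. The neutrophil sums were 599, 649 and 827 in FLT-Sham replicates 4, 6 and 9 and 451 in replicate 8, and 371 in FLT-Surgery replicate 1 against 25 and 81.3 in replicates 3 and 5. Endothelial sums ran the other way, at 28.9, 27.5 and 30.4 against 48 in FLT-Sham, and 59.6 against 79.1 and 184 in FLT-Surgery. On the ground, where no array was above background for Fos, muscle sums ran from 675 to 10300. The array at 10300, G-Sham replicate 5, had an erythroid sum of 107, an adipocyte sum of 45.7 and a neutrophil sum of 512. The part of this tissue content in the member values was not tested. As to breadth of detection, FLT-Sham replicates 4, 6 and 9 had 37.5, 38.5 and 34.9% of probes above background, and replicate 8 had 26.6%. G-Surgery replicate 1 had 37.2% and a Fos signal of 132, while FLT-Surgery replicate 1 had 25.6% and a Fos signal of 896. The part of this breadth in the member values was not tested either. Within a slide, the Fos difference of FLT-Sham from G-Sham was 4.62 on slide 1 (1 array each) and 2.11 on slide 2 (3 against 2 arrays), and the Egr1 difference was 3.46 and 1.72. No G-Sham array was above background for Fos, nor were G-Sham replicates 1 and 3 for Egr1, so these sizes are not exact. For FLT-Surgery versus G-Surgery the slides went opposite ways, with -2.28 for Egr1 on slide 1 (2 against 3 arrays) and 1.33 on slide 2 (1 array each, the flight one being replicate 1). For Fos no Surgery array of slide 1 was above background, so its value of -1.21 there gives no direction. On slide 2 the Fos value was 2.07, with only the flight array above background.

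**Figure D3:**
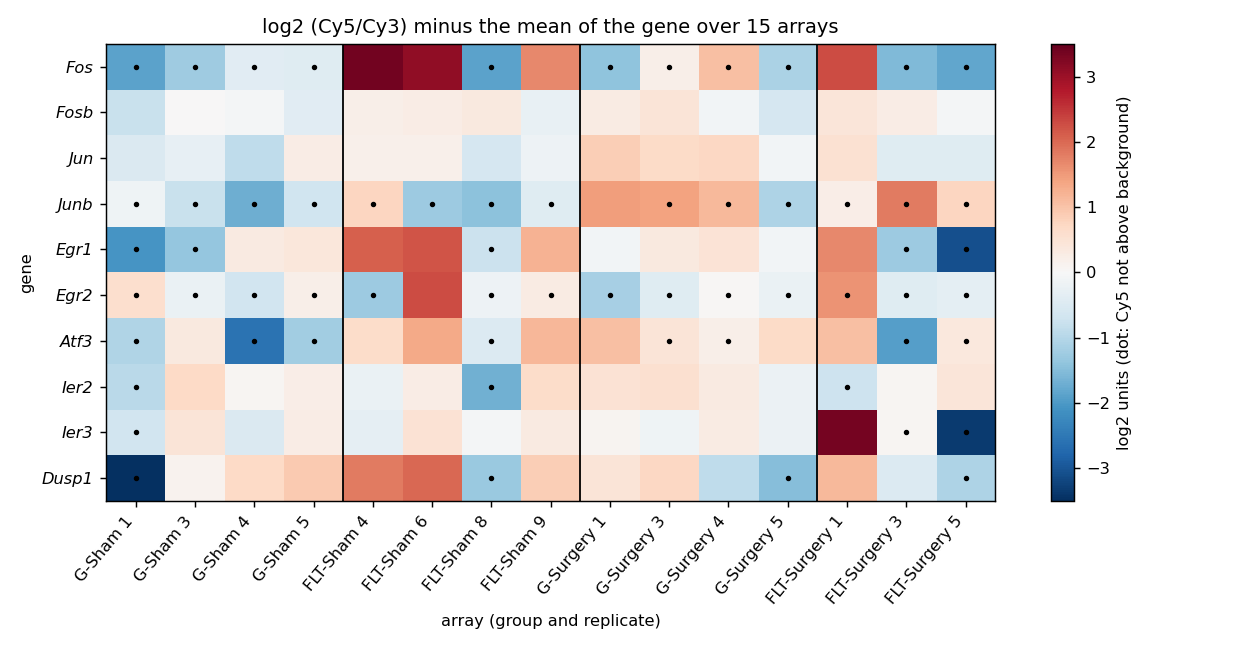
Log2 ratio of each member relative to its own mean over the 15 arrays, with genes as rows and arrays as columns, ordered by group. Red marks values above the gene's mean, blue values below it, and a dot a probe not above background. Fos, Egr1 and Dusp1 were high together in FLT-Sham replicates 4, 6 and 9 and FLT-Surgery replicate 1, and Dusp1 was higher in G-Sham replicate 5 than in FLT-Sham replicate 9.

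Taking the members as a list, 7 of the 8 tested had a log2 difference above 0 in FLT-Sham versus G-Sham, with a median of 0.88, where 61.1% of all probes tested were above 0 with a median of 0.24. In FLT-Surgery versus G-Surgery 3 of 7 were above 0 (median -0.38), against 37.8% of all probes (median -0.20). G-Surgery versus G-Sham had 7 of 7 above 0 (median 0.32), against 59.9% (median 0.14). FLT-Surgery versus FLT-Sham had 2 of 8 above 0 (median -0.46), against 41.4% (median -0.28), and the interaction had 0 of 8 (median -1.02), against 39.2% (median -0.36). These describe only members that passed the filter, and Fos passed it through flight arrays. The direction of the whole array moved with the scaling: the median of all probes in FLT-Sham versus G-Sham was 0.24 as deposited and -0.13 after a further loess, and in FLT-Surgery versus G-Surgery -0.20 and 0.30. The share of higher values among all called probes moved from 89.6 to 64.9% and from 33.3 to 95.1% with that loess. For the interaction the median of all probes was -0.36 as deposited and 0.50 after that loess, which turned Fosb, Ier2 and Ier3 above 0. Under normexp with loess the interaction of Fos, Fosb, Atf3, Ier2 and Ier3 was above 0.

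**Figure D4:**
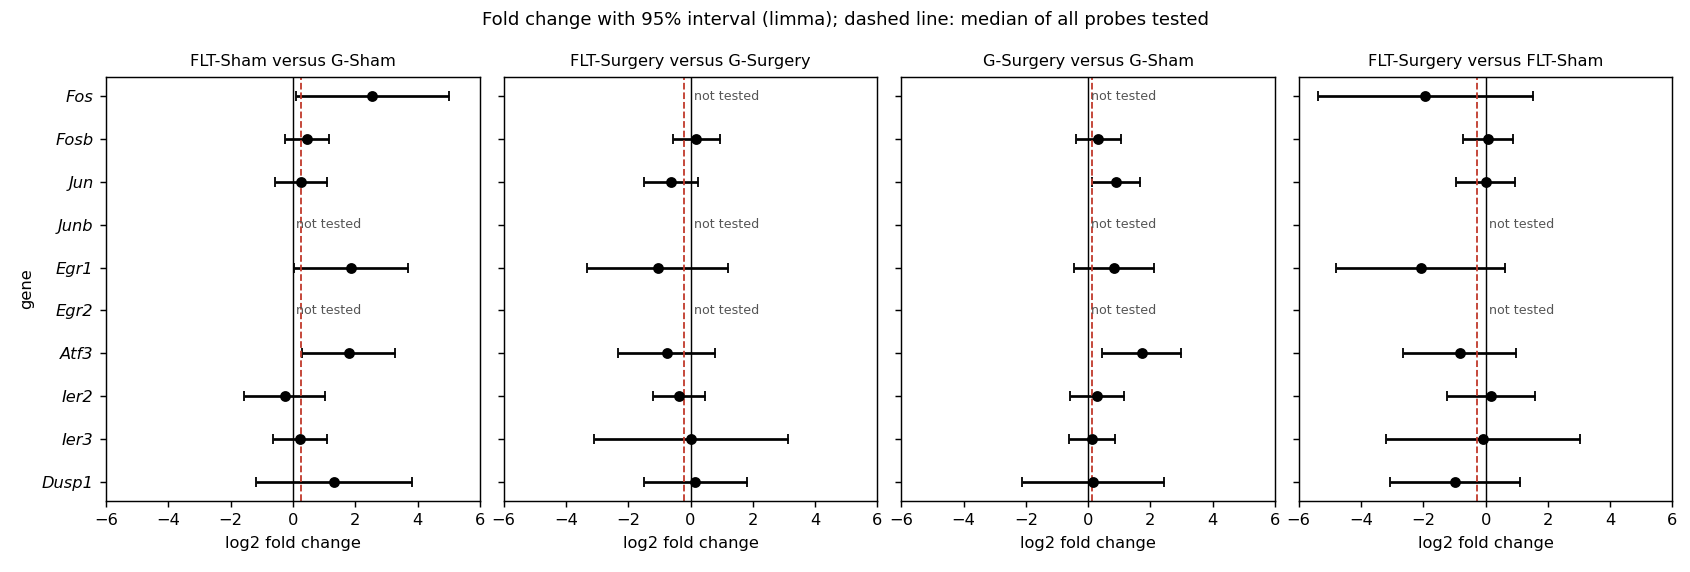
Log2 fold change of each tested member (x axis) with its 95% interval from limma, in 1 panel per comparison, with the median of all probes as a dashed line. No member passed the cut-off, the intervals of Egr1 and Atf3 lay above 0 in FLT-Sham versus G-Sham, as did that of Fos, which was tested only through FLT-Sham arrays, and those of Jun and Atf3 lay above 0 in G-Surgery versus G-Sham.

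**Figure D5:**
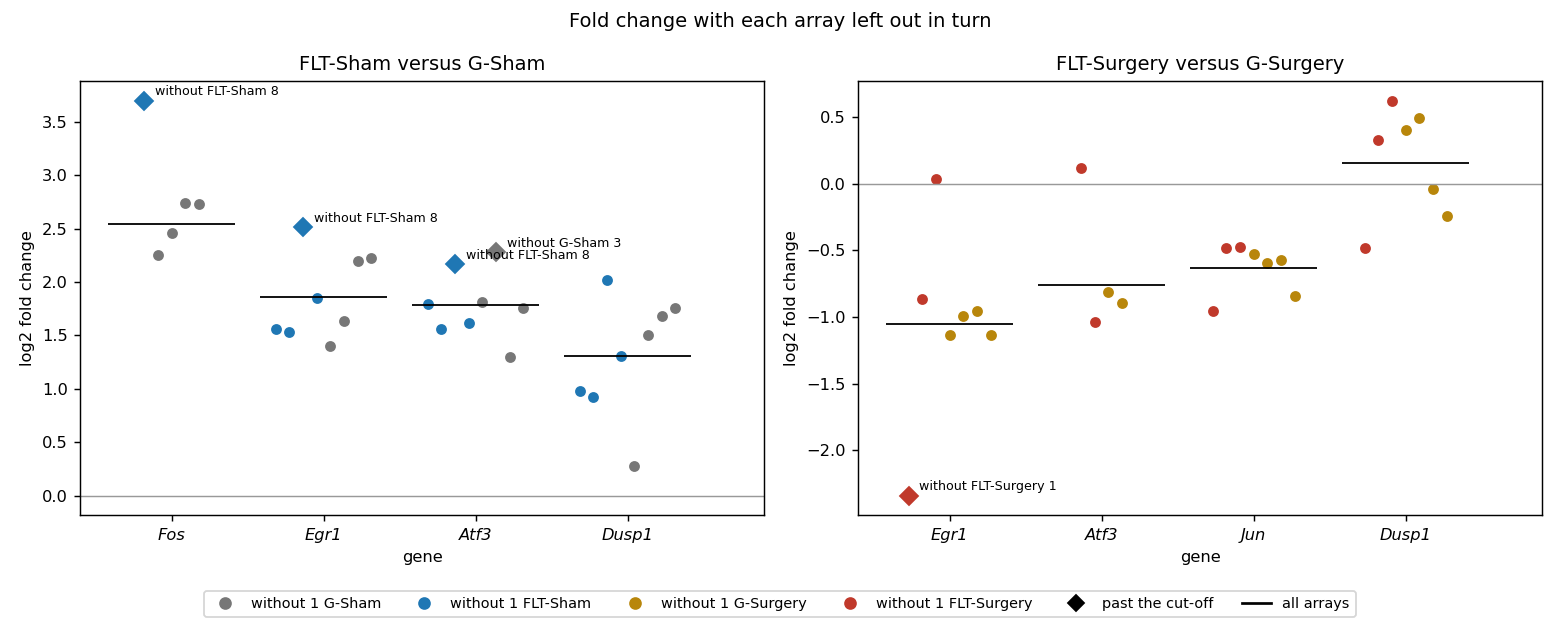
Log2 fold change of selected members with all arrays and after dropping single arrays (y axis, log2 units), for FLT-Sham versus G-Sham on the left and FLT-Surgery versus G-Surgery on the right; diamonds are past the cut-off. Leaving out FLT-Sham replicate 8 moved Fos from 2.55 to 3.70, and leaving out FLT-Surgery replicate 1 moved Egr1 from -1.05 to -2.34. The FLT-Surgery arrays then left were not above background for Egr1.

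Of 72 other genes of the pathway, all on the array, 58 were tested in FLT-Sham versus G-Sham, and 1 was called, Fosl2, a Fos family subunit with a role in bone formation, where 1.79% of all probes were called higher. Its Cy5 signal was 1039, 1076, 425 and 1001 in FLT-Sham replicates 4, 6, 8 and 9 and 211 to 303 in G-Sham, where it was dim on every array. Its FLT-Sham mean was thus at least 2.1-fold higher, with replicate 8, also dim, averaged in. The fitted log2 difference was 1.33 (SE 0.37, limma adjusted p = 0.451), and under normexp with loess it was -0.23. Like Fos, Fosl2 passed the filter only through FLT-Sham arrays, so its call has part of its direction built in. The call was also lost with a further loess, with the slide as a block, in 1 fit of all 15 arrays, and without G-Sham replicate 1, 3 or 4. Klf2, a factor induced by fluid shear, had the largest difference, 2.77 (SE 0.88, limma adjusted p = 0.491), and passed only when an array was left out (without FLT-Sham replicate 8, 3.41) or in Cy5 alone. Klf4, a factor of the same family, differed by 2.34 without passing. Of the 58 genes, 44 had a difference above 0 (median 0.475), where 61.1% of all probes did (median 0.24). By list, the median was 0.397 over the 7 AP-1 relatives tested, 0.561 over 22 other immediate-early genes, and 0.117 over 10 mechanosensing genes and YAP targets.

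For G-Surgery versus G-Sham, 4 of 50 pathway genes tested were called, all higher in G-Surgery, against 2.08% of all probes called higher. Fosl2 was 614 to 1776 in Cy5 signal in G-Surgery, all above the 211 to 303 of G-Sham, which makes its group mean at least 3.44-fold higher (log2 difference 1.93, SE 0.42, limma adjusted p = 0.23). It was again tested only through the bright group, since all G-Sham arrays were dim. Klf2 was 988 to 3827 in G-Surgery and 200 to 981 in G-Sham (2.70, SE 0.77, limma adjusted p = 0.331). Klf6, a zinc finger factor induced by injury, had signals of 4095 to 11110 in G-Surgery and 1945 to 3273 in G-Sham (1.37, SE 0.37, limma adjusted p = 0.318). Trpv4, a calcium channel that senses osmotic and mechanical stimuli, was at 1087 to 1519 in G-Surgery and 397 to 765 in G-Sham (1.14, SE 0.29, limma adjusted p = 0.295). Fosl2 passed the cut-off with any of the 8 arrays left out but not under normexp with loess (0.33). Klf2, Klf6 and Trpv4 missed it with the slide or the replicate number as a block. Trpv4 also missed it after a further loess (0.74), in Cy5 alone (0.92) and under normexp with loess (0.30), and Klf6 under normexp with loess (0.93). Klf2 also missed it without the filter on dim probes and in 1 fit of all 15 arrays. Each also missed it when certain single arrays were left out, which were G-Sham replicates 1, 3 and 4 and G-Surgery replicates 1, 3 and 4 for Klf2, G-Sham replicates 1 and 4 and G-Surgery replicates 1, 3 and 4 for Klf6, and G-Sham replicate 1 and G-Surgery replicates 1 and 4 for Trpv4. Nr4a2, an orphan nuclear receptor, was dim in all of G-Sham (78.6 to 216) and in G-Surgery replicate 5 (162). It passed the filter only through the other G-Surgery arrays, so some difference in this direction was built into its being tested. Its G-Surgery mean, with replicate 5 averaged in, was at least 2.77-fold higher, without a call (limma adjusted p = 0.426).

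In FLT-Surgery versus G-Surgery 0 of 48 pathway genes tested were called by limma, with 8 at an unadjusted p of at most 0.05, against 3.14% and 16.4% of all probes. Tob1, an antiproliferative factor, had the largest difference, -3.04 (SE 0.98, limma adjusted p = 0.28), from Cy5 signals of 432, 72.2 and 66.4 in FLT-Surgery replicates 1, 3 and 5 against 279 to 1207 in G-Surgery. Mkl2 (now Mrtfb), an actin-sensing cofactor of serum response factor, differed by -1.93 and Sgk1, a stress-induced kinase, by -1.88, the latter turning to 0.42 under normexp with loess. With the slide as a block Tob1 (-3.22) and Mkl2 (-2.08) passed the cut-off, and Tob1 also in 1 fit of all 15 arrays and without G-Surgery replicate 1. Tob1, Mkl2 and Sgk1 passed without FLT-Surgery replicate 1, when no FLT-Surgery array left was above background for them. Of the 48 genes, 14 were above 0 (median -0.393), against 37.8% of all probes (median -0.20). In FLT-Surgery versus FLT-Sham Tob1 was the only 1 of 58 called, against 6.22% of all probes called lower, at -4.06 (SE 1.14, limma adjusted p = 0.145). The call was lost with the slide as a block, without the filter on dim probes, under normexp with loess, and without FLT-Sham replicate 4, 6 or 9 or FLT-Surgery replicate 3 or 5. Sgk1 and Klf4 differed by -3.29 and -2.71 without passing. The interaction called 4 of 59 pathway genes, all negative, against 4.97% of all probes called negative. They were Klf2 at -4.39 (SE 1.41, adjusted p = 0.179), Fosl2 at -2.64 (SE 0.86, adjusted p = 0.182), Pkd1, a mechanosensory channel-like protein, at -1.48 (SE 0.42, adjusted p = 0.171) and Mkl1 (now Mrtfa) at -1.26 (SE 0.38, adjusted p = 0.172), all from limma. All 4 missed the cut-off with the replicate number as a block, with a further loess and under normexp with loess, and Klf2 and Fosl2 also when most single arrays were left out. The other Mkl1 probe tested was not called, and Nr4a2, not called by its brighter probe, was called negative by its dimmer one. Tob1 and Sgk1 had interactions of -3.66 and -3.84 without passing.

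Genes whose log2 ratio moved most like that of a member were sought over the 15 arrays among 7315 candidate probes above background on at least 12 arrays. Fos, above background on 4 arrays, did not qualify, and Fosb and Jun, each above background on all 15, took its place. For Fosb the highest Pearson r was that of Ctu2 (0.788), followed by Ptp4a1 (0.784), Cnn3 (0.78), Zfand2a (0.778) and Vps26c (0.775). Jun was matched more closely, by genes that included Sphk1 (0.924), Cerk (0.921), Plxdc2 (0.903) and Pcdhga9 (0.902). These correlations are descriptions over 15 arrays of 4 groups that share a reference and a processing, with no test.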

How the data were processed

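The authors deposited 1 scanner file per mouse, made with Agilent Feature Extraction (12.0 in the submitters' processing notes), in which each spot has a background-subtracted, dye-normalised Cy5 and Cy3 intensity and the log10 ratio of Cy5 to Cy3. The deposited series value table holds the same log10 ratios, within 0.005. Dyes were not swapped, so dye bias does not cancel in a ratio but is shared by all groups.

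Deposited ratios were turned to log2, outlier spots were left out and spots of a probe averaged, with no further loess. A probe was above background when Feature Extraction marked at least the share 0.5 of its spots. Groups were compared with limma 3.58.1 in R 4.3.3, adjusted over all probes tested. Precision is limited by the number of mice, and p-values measure the spread between mice. Lower bounds of fold compare group means, with signals of the dimmer group raised at least to the dimmest signal well above background. They average in any dim array of the brighter group and take no account of the spread between mice. Groups came from the labels' treatment and sample group. Where a gene has several probes, the one with the highest mean Cy5 signal was used. Other pathway genes named are those past the cut-off and the 3 with the largest fold change per comparison. Some genes that these rules name are not reported here. Alternatives were a loess, median centring, Cy5 alone, normexp with an offset of 50 on median signals (mean signals were not used here) with loess, other filters on dim probes, the slide or the replicate number as a block, 1 fit of all arrays, the value table, and each array dropped in turn. The script for these fits was tested on simulated data. The members and lists were chosen with earlier results of these data known.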

Additional observations from a re-analysis of the deposited data

Results flagged for a closer look

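Junb in G-Surgery replicate 5 had a log2 ratio of -3.57, far from the -1.34 to -1.03 of the other 3 arrays of its group. It was the only 1 of 30 combinations of member and group of 4 arrays past the critical value of Dixon's test, where chance gives about 1.5. Junb was above background in G-Surgery replicate 1 alone, so the values compared are mostly those of signal not above background.

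The interaction of spaceflight and surgery over all 15 arrays (limma, unadjusted p at most 0.01) called 4 of 59 other genes of the pathway, all negative, where 4.97% of all probes were called negative. The log2 values were -4.39 for Klf2, -2.64 for Fosl2, -1.48 for Pkd1 and -1.26 for Mkl1. None passed an adjusted p of 0.05. All 4 missed the cut-off with the replicate number as a block and with a further loess, and Fosl2 turned to 0.37 under normexp with loess.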

How the results depend on the processing

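The count of members past the cut-off was 0 in every comparison under every setting with all arrays that could be computed. Leaving out 1 array at a time, the count ranged from 0 to 3 in FLT-Sham versus G-Sham, from 0 to 1 in FLT-Surgery versus G-Surgery and in G-Surgery versus G-Sham, and from 0 to 2 for the interaction, and it was 0 throughout in FLT-Surgery versus FLT-Sham. Among all probes, the count called in FLT-Sham versus G-Sham was 394, but 2071 when FLT-Sham replicate 8 was dropped and 94 when replicate 6 was, and in FLT-Surgery versus G-Surgery it was 519 but 2052 without FLT-Surgery replicate 1. By setting, the count over all probes lay between 33 and 683 in FLT-Sham versus G-Sham and between 211 and 1290 in FLT-Surgery versus G-Surgery.

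After a loess on the processed signals the sign turned for Ier3 (-0.15) in FLT-Sham versus G-Sham, Atf3 (0.15) and Ier2 (0.45) in FLT-Surgery versus G-Surgery, Ier2 (-0.085), Ier3 (-0.10) and Dusp1 (-0.18) in G-Surgery versus G-Sham, Jun (0.28), Atf3 (0.27) and Ier3 (0.62) in FLT-Surgery versus FLT-Sham and Fosb (0.60), Ier2 (1.23) and Ier3 (0.72) in the interaction. With normexp and loess it turned for Atf3 (-0.10), Ier3 (-0.44) and Fosl2 (-0.23) in FLT-Sham versus G-Sham, Egr1 (0.53), Atf3 (0.042) and Sgk1 (0.42) in FLT-Surgery versus G-Surgery, Fosb (-0.031) and Ier3 (-0.11) in G-Surgery versus G-Sham, Fos (0.20), Jun (0.085), Egr1 (0.11), Atf3 (0.27) and Ier3 (0.84) in FLT-Surgery versus FLT-Sham and Fos (0.18), Fosb (0.20), Atf3 (0.14), Ier2 (0.087), Ier3 (0.95), Fosl2 (0.37) and Sgk1 (0.042) in the interaction. In Cy5 alone it turned for Dusp1 (-0.035) in G-Surgery versus G-Sham, Jun (0.042) and Ier3 (0.26) in FLT-Surgery versus FLT-Sham and Fosb (0.065), Ier2 (0.28) and Ier3 (0.15) in the interaction. With median centring it turned for Jun (0.042) in FLT-Surgery versus FLT-Sham. With the slide as a block it turned for Ier3 (-0.18) in FLT-Surgery versus G-Surgery, Ier3 (-0.17) in G-Surgery versus G-Sham and Jun (0.10), Ier2 (-0.022) and Ier3 (1.01) in FLT-Surgery versus FLT-Sham. With the replicate number as a block it turned for Dusp1 (-0.040) in FLT-Surgery versus G-Surgery and Ier3 (0.14) in the interaction. The causes of these turns were not tested, and none of the members concerned was called in the deposited ratios.

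With 1 array left out the sign of a member turned in some cases, and the range over all arrays left out was then Ier2 (-0.58 to 0.22) in FLT-Sham versus G-Sham, Fosb (-0.0076 to 0.34), Egr1 (-2.34 to 0.037), Atf3 (-1.04 to 0.12), Ier3 (-1.66 to 1.69) and Dusp1 (-0.48 to 0.62) in FLT-Surgery versus G-Surgery, Ier2 (-0.027 to 0.52), Ier3 (-0.055 to 0.32) and Dusp1 (-0.87 to 0.62) in G-Surgery versus G-Sham, Fosb (-0.064 to 0.20), Jun (-0.32 to 0.16), Atf3 (-1.44 to 0.048), Ier2 (-0.31 to 0.49) and Ier3 (-1.75 to 1.59) in FLT-Surgery versus FLT-Sham and Ier2 (-0.60 to 0.20) and Ier3 (-1.88 to 1.46) in the interaction.

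Same-numbered arrays showed no common pattern of deviation (correlations between -0.415 and 0.343), so the replicate numbers were not used as pairs in the main fits. With 3 or 4 arrays a group, this cannot exclude a shared factor behind a number. With the replicate block 0 members passed the cut-off in the 3 comparisons that allowed it. No block could be fitted for FLT-Sham versus G-Sham, which share 1 number, or for FLT-Surgery versus FLT-Sham, which share none. With 3 or 4 mice a group and probes such as Fos, Junb, Egr2 and Atf3 not above background on most arrays, a change of these genes within the spread between mice could not be detected here.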
